A study of Homo sapiens with 15 samples.

Results

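The EGR, NR4A and IER families hold 9 immediate early genes that were followed here in xenografts of human myeloma in mouse bone marrow. They were taken by their Ensembl identifiers, and all 9 were present among the 57773 genes of the count files: EGR1, EGR2, EGR3, NR4A1, NR4A2, NR4A3, IER2, IER3 and IER5. MM.1S, an established human multiple myeloma cell line carrying green fluorescent protein and luciferase, was injected by vein into SCID-beige mice, which lack functional T and B cells and have weak NK cells. Mice received bortezomib (0.25 mg/kg into the peritoneum, weekly), elesclomol (25 mg/kg under the skin), both from the start (combination), both with elesclomol begun 14 days after entry (delayed combination), or PBS, for which the protocol names weekly saline. Bortezomib blocks the proteasome and is a standard myeloma drug, whereas elesclomol binds copper and carries it into cells. Of 5 mice treated per group, 3 libraries per group were sequenced, 15 in all. All 5 groups shared the cell line, the host strain and the endpoint of limb paralysis or severe toxicity, so each level is that of marrow taken at the end of disease and not at a fixed time after a dose.

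Immediate early genes are switched on within minutes of a growth factor, cytokine or stress signal, because the factors that bind their promoters are already present and only need to be phosphorylated. ERK signalling acts through ELK factors and SRF at the CArG box, and cAMP and calcium signalling act through CREB at the cAMP response element. The transcripts are short lived, so their level follows recent signalling. EGR proteins are zinc finger transcription factors, NR4A proteins are orphan nuclear receptors that act without a known natural ligand, and IER2, IER3 and IER5 are small proteins grouped by their rapid induction and not by a shared DNA-binding domain.

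The promoters are shown because the 9 genes are set side by side as one signal-responsive class while the windows before their starts differ. RefSeq gave 9 windows of 300 bases (250 before and 50 from the start of transcription on) for 6 of the genes, on the GRCh38.p14 build. EGR3, NR4A2 and IER3 are named only. Capitals mark CArG boxes and the sequence TGACG, the core of the cAMP response element, which reads CGTCA where it lies on the opposite strand. The lines are EGR1 (chr5:138465229-138465528, plus strand), the EGR2 window that holds a CArG box (chr10:62816317-62816616, minus strand), IER2 (chr19:13150161-13150460, plus strand) and IER5 (chr1:181088450-181088749, plus strand), each 5′ to 3′.
EGR1: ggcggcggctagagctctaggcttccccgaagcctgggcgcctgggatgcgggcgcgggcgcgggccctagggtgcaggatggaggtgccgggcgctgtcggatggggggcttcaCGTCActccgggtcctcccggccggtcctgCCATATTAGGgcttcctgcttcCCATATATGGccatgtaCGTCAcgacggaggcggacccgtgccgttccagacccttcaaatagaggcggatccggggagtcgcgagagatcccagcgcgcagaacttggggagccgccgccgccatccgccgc
EGR2: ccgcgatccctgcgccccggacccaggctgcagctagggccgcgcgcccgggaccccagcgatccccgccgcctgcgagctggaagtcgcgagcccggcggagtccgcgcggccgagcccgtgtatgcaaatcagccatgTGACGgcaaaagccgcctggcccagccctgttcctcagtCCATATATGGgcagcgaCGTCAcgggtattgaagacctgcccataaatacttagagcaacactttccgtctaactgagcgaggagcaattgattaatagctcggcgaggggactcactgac
IER2: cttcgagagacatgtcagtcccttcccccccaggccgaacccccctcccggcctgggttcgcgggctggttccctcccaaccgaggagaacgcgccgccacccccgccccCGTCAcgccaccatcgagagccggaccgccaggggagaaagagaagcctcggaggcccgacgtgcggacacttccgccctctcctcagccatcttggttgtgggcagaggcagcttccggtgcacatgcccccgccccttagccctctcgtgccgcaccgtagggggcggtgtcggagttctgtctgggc
IER5: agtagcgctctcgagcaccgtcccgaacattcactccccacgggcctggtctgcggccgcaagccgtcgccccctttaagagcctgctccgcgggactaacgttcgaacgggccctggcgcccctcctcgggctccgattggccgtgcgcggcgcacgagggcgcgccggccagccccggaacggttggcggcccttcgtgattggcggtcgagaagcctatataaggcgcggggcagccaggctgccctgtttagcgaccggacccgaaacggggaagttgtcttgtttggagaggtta
The EGR1 window held 2 CArG boxes, starting at -105 and -83 from the first transcribed base, and 2 copies of TGACG, at -135 and -66. The EGR2 window held 1 CArG box at -71 with TGACG at -110 and -54, while its 2 other windows held neither. IER2 held 1 TGACG at -140 and no CArG box, and IER5 held neither. NR4A3, whose window is not printed, held 4 copies of TGACG, and the 2 windows of NR4A1 held none. Both strands were searched. A CArG box was present in 1.29% of all 35116 windows, TGACG in 24.6%, and the full TGACGTCA, which overlaps TGACG, in 1.85% of all windows and in no member window. GCGNGGGCG, the EGR binding motif, was found once in EGR1, at -198, once in another EGR2 window, and in 9.43% of all windows. A match describes the letters of the window and is no evidence of binding.

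Depth and cell make-up set the precision of these levels. Counts per library summed to 4500326 to 13161087, with the delayed combination deepest. The summed level of 11 myeloma plasma cell markers lay between 14200 and 17300 CPM (read counts scaled to a common library size with TMM factors) in all groups, and all 11 were detected. Markers of mature B cells summed to at most 0.33 CPM. The 8 erythroid markers summed to 29.5 to 37.1 CPM in bortezomib, 28.9 to 340 CPM in elesclomol, 11.1 to 32.8 CPM in the combination, 11 to 24.6 CPM in the delayed combination and 20.4 to 31.9 CPM in PBS, with HBA1 at 0 in all 15 libraries. The high value is elesclomol 1, which also had the highest granulocyte sum (142 CPM, against 8.92 to 33.3 CPM in the other 14). Other host markers in the delayed combination were set against PBS. The 10 granulocyte markers summed to 8.92 to 19 CPM in the delayed combination and 16.4 to 28.7 CPM in PBS, ranges that overlapped. Of the 6 tested, 4 lay wholly below PBS, as did 14.7% of all genes (median log2 change of the 6 -1.54). The 11 stromal and bone markers summed to 133 to 240 CPM in the delayed combination and 104 to 134 CPM in PBS, and the 5 endothelial ones to 2.5 to 5.66 CPM and 0.69 to 2.25 CPM in the same order. None of these lists had a marker at 0 in all 15 libraries. In edgeR 0 of their 6, 8 and 2 tested markers passed in this comparison. At an unadjusted p under 0.05 were 0, 4 (3 higher and 1 lower) and 1 (higher) of them, against 11.1% of all genes. Granulocyte markers lay 2 above 0 and 4 below, stromal and bone ones 5 above and 3 below (median 0.20). All 4 tested macrophage markers lay above 0 (median 0.68), with 1 at such a p and 0 passing. The 8 macrophage markers summed to 13.5 to 69.4 CPM, against 14.7 to 30.7 CPM in PBS, with MARCO at 0 in all 15 libraries. With the mean level of the host markers as a covariate, the delayed combination's log2 change against PBS was -2.92 ± 0.67 for EGR1, -1.54 ± 0.26 for IER2 and -1.58 ± 0.41 for NR4A2. The mean host marker level overlapped between these groups, at 0.293 to 0.497 log2 CPM in PBS and 0.313 to 0.81 in the delayed combination. It was highest in elesclomol 1, at 2. Granulocyte markers lay mostly below PBS and macrophage ones above, so their mean could not capture these opposite differences. The fit therefore does not show whether the host differences bear on the members. The part of each marker list by itself was not tested. Bortezomib 1, combination 1 and delayed combination 2 were GC-rich relative to the other libraries. In them, gene GC content correlated with the deviation of each gene from its mean log2 CPM over all 15 libraries. These correlations were 0.509, 0.494 and 0.315, against -0.348 to -0.293 in PBS. In bulk marrow, fewer cells of a type and less RNA per cell cannot be told apart. The labels number the libraries within a group but do not tie them to mice, so p-values measure the spread between these libraries.

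The members spanned about 2 orders of magnitude in level. Per kb of exon, the mean over the 15 libraries was 11 CPM per kb for IER5, 10.2 for EGR1, 3.7 for IER2, 1.55 for NR4A2, 1.28 for IER3, 1.08 for NR4A1, 0.488 for EGR2, 0.24 for EGR3 and 0.108 for NR4A3. Neighbours in this order overlapped over the 15 libraries, as IER5 (6.86 to 17.7) did with EGR1 (0.928 to 29.8). In PBS alone the order of the highest pair was reversed, with 24.6 ± 4.69 CPM per kb for EGR1 and 9.45 ± 0.592 for IER5 (SD, n = 3). Of the relatives outside the 9, EGR4 had 0 to 2 counts per library and IER5L 5 to 32. IER5L was tested and stood at -0.28 ± 0.48 (log2 change with elesclomol against PBS, edgeR adjusted p = 0.922).

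**Figure D1:**
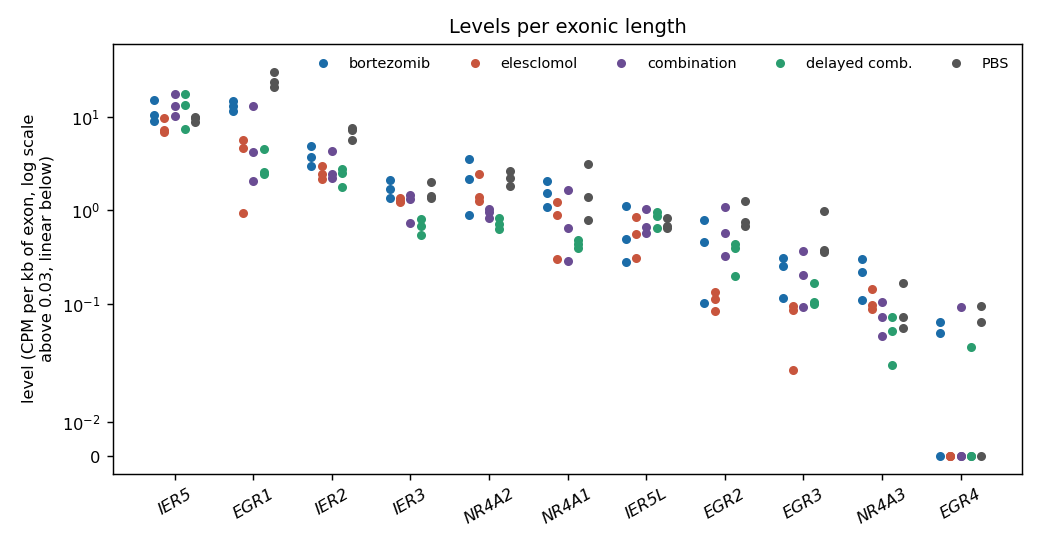
Level per kb of exon (CPM per kb, logarithmic above 0.03 and linear below) of the 9 genes and their relatives EGR4 and IER5L, ordered by median, with 1 point per library coloured by group. EGR1 in PBS (20.6 to 29.8) is the only set of 3 libraries of any gene that lies above 20 CPM per kb throughout, and EGR4 lies at or near 0 in every group.

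EGR1 and IER2 stood lower in all 4 treated groups than in PBS in every library, EGR2 and EGR3 stood lowest with elesclomol alone, NR4A2 lay below PBS without overlap in the 2 groups given both drugs, and IER5 lay above PBS in the combination. None of these differences passed the adjusted threshold of 0.05 in edgeR's quasi-likelihood test over 13085 genes, at which few genes passed at all (9 genes, or 0.0688%, for elesclomol against PBS, and 0% for the other 3 treatments against PBS). NR4A3, at 2 to 10 counts per library, was below the filter on low counts, so 8 members were tested.

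EGR1, the founding zinc finger factor of its family and a target of ERK signalling, had 41.2, 46.8 and 36.3 CPM in bortezomib libraries 1 to 3. It had 14.4, 17.9 and 2.91 CPM with elesclomol and 40.5, 13 and 6.47 CPM in the combination. The delayed combination had 7.59, 8.08 and 14.1 CPM, against 74, 93.4 and 64.5 CPM in PBS. All 12 treated libraries lay below all 3 PBS libraries, and combination 1 lay with the bortezomib libraries while combination 2 and 3 lay with elesclomol. The log2 change against PBS was -2.96 ± 0.62 (SE) in the delayed combination (edgeR adjusted p = 0.213), a level 7.78-fold lower than in PBS. It was -2.74 ± 0.63 with elesclomol (edgeR adjusted p = 0.227), -1.92 ± 0.59 in the combination (edgeR adjusted p = 0.28) and -0.90 ± 0.57 with bortezomib (edgeR adjusted p = 0.539). Without combination 1, which was GC-rich, the change in the combination was -2.99 ± 0.58.

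EGR2, also called Krox20 and known from myelination and from lymphocyte tolerance, was counted 2 to 36 times per library. It had 2.87, 1.67 and 0.376 CPM with bortezomib and 0.304, 0.419 and 0.485 CPM with elesclomol. It had 3.96, 1.2 and 2.11 CPM in the combination and 1.58, 1.45 and 0.727 CPM in the delayed combination, against 2.47, 2.73 and 4.66 CPM in PBS. Elesclomol alone was the 1 group in which all 3 libraries lay under 0.5 CPM, and its libraries rest on 2 to 4 counts each. Elesclomol and the delayed combination lay below PBS without overlap, while bortezomib and the combination overlapped PBS. The log2 change against PBS was -2.97 ± 0.66 with elesclomol (edgeR adjusted p = 0.189), -1.39 ± 0.52 in the delayed combination (0.401), -0.92 ± 0.53 with bortezomib (0.505) and -0.41 ± 0.50 in the combination (0.71). Single libraries moved the last 2 values. The bortezomib change was -1.61 ± 0.61 without bortezomib 1 and -0.52 ± 0.49 without bortezomib 3. The combination change was -0.98 ± 0.56 without combination 1, -0.12 ± 0.51 without combination 2 and -0.09 ± 0.58 without PBS 3.

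EGR3, a zinc finger factor induced by antigen receptors in lymphocytes, was counted 1 to 31 times per library. It had 1.49, 1.21 and 0.565 CPM with bortezomib and 0.456, 0.419 and 0.121 CPM with elesclomol. It had 1.76, 0.449 and 0.985 CPM in the combination and 0.5, 0.817 and 0.485 CPM in the delayed combination, against 1.8, 4.71 and 1.73 CPM in PBS. Bortezomib, elesclomol and the delayed combination lay wholly below PBS, and combination 1 alone reached into the PBS range. Elesclomol rests on 7 counts in its 3 libraries, against 49 in PBS. The log2 change against PBS was -3.08 ± 0.64 with elesclomol (edgeR adjusted p = 0.125), -2.21 ± 0.53 in the delayed combination (0.252), -1.34 ± 0.52 in the combination (0.318) and -1.30 ± 0.52 with bortezomib (0.452). PBS 2 was the high library here and in NR4A1, and without it the elesclomol change was -2.40 ± 0.67. The delayed combination then stood at -1.54 ± 0.57, the combination at -0.68 ± 0.56 and bortezomib at -0.64 ± 0.56.

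NR4A1, or Nur77, an orphan receptor induced in lymphocytes by antigen receptor signalling, had 7.8, 15 and 11.1 CPM with bortezomib. It had 8.81, 6.42 and 2.18 CPM with elesclomol and 12.1, 2.1 and 4.64 CPM in the combination. The delayed combination had 2.84, 3.18 and 3.47 CPM, against 10.1, 22.9 and 5.69 CPM in PBS. PBS spread from 5.69 to 22.9 CPM, and the delayed combination was the 1 group that lay wholly below it, with 3 libraries close together. The log2 change was -2.05 ± 0.64 in the delayed combination (edgeR adjusted p = 0.373), -1.20 ± 0.64 with elesclomol (0.686), -1.01 ± 0.62 in the combination (0.47) and -0.22 ± 0.60 with bortezomib (0.889). Without combination 1 the combination's change was -1.94 ± 0.67, and without combination 2 it was -0.64 ± 0.62. Without PBS 2, the highest PBS library, all 4 changes stood closer to 0 or above it: -1.30 ± 0.66 in the delayed combination, -0.44 ± 0.65 with elesclomol, -0.28 ± 0.64 in the combination and 0.52 ± 0.64 with bortezomib. Without elesclomol 3 the elesclomol change was -0.79 ± 0.64.

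NR4A2, or Nurr1, the receptor known for its part in dopamine neurons, had 3.55, 14.1 and 8.66 CPM with bortezomib and 5.47, 9.77 and 4.97 CPM with elesclomol. The combination had 4.07, 3.75 and 3.24 CPM and the delayed combination 3.25, 2.82 and 2.5 CPM, against 8.77, 10.3 and 7.25 CPM in PBS. Both combination groups lay below PBS without overlap, and their 6 libraries spanned 2.5 to 4.07 CPM, whereas each drug alone overlapped PBS. The log2 change was -1.62 ± 0.40 in the delayed combination (edgeR adjusted p = 0.252), -1.25 ± 0.40 in the combination (0.28), -0.39 ± 0.38 with elesclomol (0.852) and -0.03 ± 0.38 with bortezomib (0.984). Set against bortezomib, the combination differed by -1.22 ± 0.40 (edgeR adjusted p = 0.999) and the delayed combination by -1.59 ± 0.39 (edgeR adjusted p = 0.813). The test of whether the 2 drugs together differ from the sum of each alone gave -0.83 ± 0.55 (edgeR adjusted p = 0.713). Without bortezomib 2, the highest bortezomib library, these 3 values were -0.66 ± 0.37, -1.03 ± 0.36 and -0.27 ± 0.48. Without bortezomib 1 the delayed combination differed from bortezomib by -2.00 ± 0.29 (edgeR adjusted p = 0.0298). Over 25 alternative analyses that adjusted p ran over 3.34e-06 to 1 and passed 0.05 in 2, this one and the fit with no filter on low counts.

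NR4A3, or NOR1, the rarest member, had 0.688, 1.37 and 1.88 CPM with bortezomib and 0.911, 0.558 and 0.607 CPM with elesclomol. It had 0.661, 0.449 and 0.281 CPM in the combination and 0.167, 0.454 and 0.323 CPM in the delayed combination, against 0.45, 1.06 and 0.345 CPM in PBS. Summed over 3 libraries this was 25 counts with bortezomib, 15 with elesclomol, 11 in the combination, 11 in the delayed combination and 11 in PBS. Every treated group overlapped PBS. The bortezomib libraries lay above all those of the combination and of the delayed combination. In the fit with no filter on low counts, which alone tested this gene, the delayed combination differed from bortezomib by -1.94 ± 0.63 (edgeR adjusted p = 0.561) and the combination by -1.37 ± 0.64 (edgeR adjusted p = 0.951).

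IER2, a nuclear protein induced by serum, had 15, 9.11 and 11.3 CPM with bortezomib and 9.11, 7.39 and 6.67 CPM with elesclomol. It had 13.3, 7.49 and 6.75 CPM in the combination and 5.5, 7.72 and 8.48 CPM in the delayed combination, against 17.1, 22.3 and 23.3 CPM in PBS. As for EGR1, all 12 treated libraries lay below all 3 PBS libraries, here with 48 to 147 counts per library. The log2 change was -1.54 ± 0.25 in the delayed combination (edgeR adjusted p = 0.123), -1.45 ± 0.26 with elesclomol (0.0573), -1.17 ± 0.26 in the combination (0.158) and -0.82 ± 0.25 with bortezomib (0.419). These SE are the smallest of the members in each of the 4 comparisons. Over 26 alternative analyses the elesclomol change stayed between -1.58 and -1.35, and its adjusted p ran over 2.7e-10 to 0.417, passing 0.05 in 9 of them.

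IER3, or IEX-1, an ERK substrate linked to cell survival, had 2.29, 1.82 and 2.82 CPM with bortezomib and 1.82, 1.67 and 1.7 CPM with elesclomol. It had 1.76, 1.95 and 0.985 CPM in the combination and 1.08, 0.908 and 0.727 CPM in the delayed combination, against 2.7, 1.82 and 1.9 CPM in PBS. The delayed combination lay wholly below PBS and bortezomib, on 9 to 13 counts per library. Elesclomol lay just under PBS, its highest library being level with the lowest PBS library to 3 digits. The log2 change was -1.20 ± 0.34 in the delayed combination (edgeR adjusted p = 0.298), -0.42 ± 0.33 in the combination (0.567), -0.28 ± 0.33 with elesclomol (0.893) and 0.12 ± 0.32 with bortezomib (0.885).

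IER5, which in human cells binds HSF1 and the phosphatase PP2A, had 63.5, 43.3 and 37.8 CPM with bortezomib and 30.1, 28.7 and 40.4 CPM with elesclomol. It had 74.3, 42.1 and 54 CPM in the combination and 30.7, 72.6 and 56.3 CPM in the delayed combination, against 41.4, 40.6 and 36.7 CPM in PBS. The combination lay above PBS without overlap, the 3 other groups overlapped it, and the 3 GC-rich libraries held the 3 highest values. The log2 change was 0.53 ± 0.30 in the combination (edgeR adjusted p = 0.443), 0.43 ± 0.30 in the delayed combination (0.553), 0.29 ± 0.30 with bortezomib (0.679) and -0.26 ± 0.31 with elesclomol (0.89). Without the 3 GC-rich libraries the same 4 changes were 0.29 ± 0.24, 0.15 ± 0.23, 0.04 ± 0.24 and -0.25 ± 0.22.

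**Figure D2:**
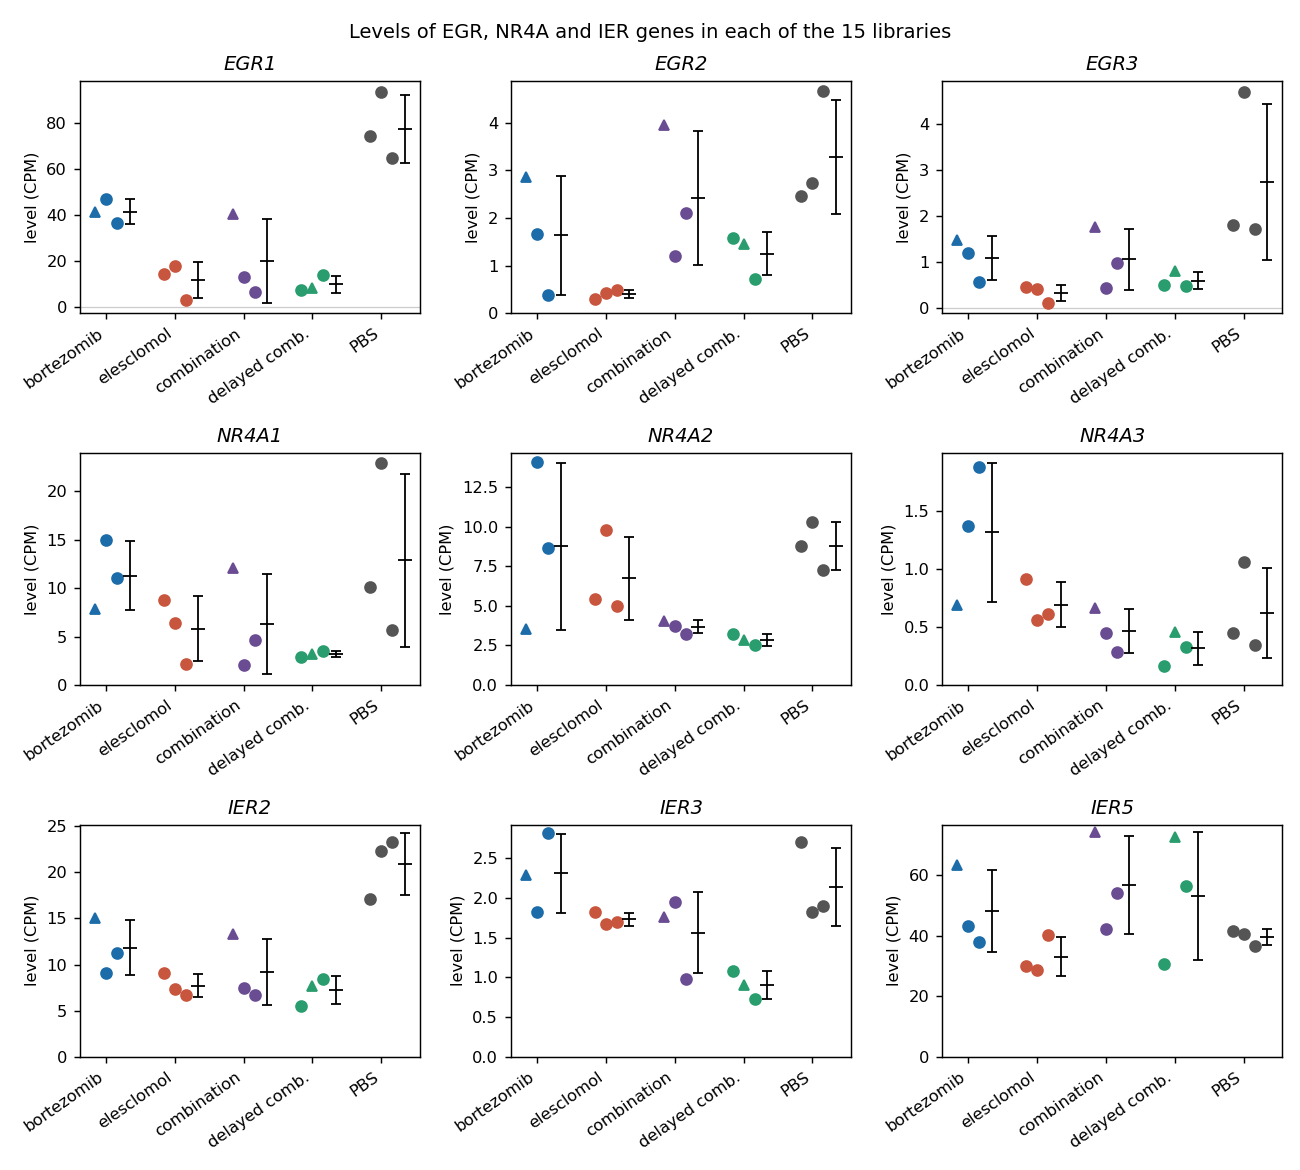
Level (CPM) of the 9 genes in each library, 1 point per library, with groups from left to right and PBS last. The bar beside each group is the mean ± SD of 3 libraries, and triangles mark the 3 GC-rich libraries. EGR1 and IER2 are the 2 genes whose 12 treated points all lie below the 3 PBS points, while the highest IER5 points are triangles.

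As a group, the 8 tested members were mostly lower in treated mice than in PBS. With elesclomol all 8 had a log2 change below 0, with a median of -1.32, against 0.004 over all genes tested. The delayed combination had 7 below 0 (median -1.58, all genes 0.009), the combination 7 (median -1.09, all genes 0.012) and bortezomib 6 (median -0.52, all genes 0.019). The number of members with all 3 libraries below all 3 PBS libraries was 7 of 8 in the delayed combination, where 14.7% of all genes did so. It was 5 of 8 with elesclomol (10.2% of all genes), 3 of 8 in the combination (10.9%) and 3 of 8 with bortezomib (9.61%). These comparisons share the 3 PBS libraries, so their values are set side by side only.

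**Figure D3:**
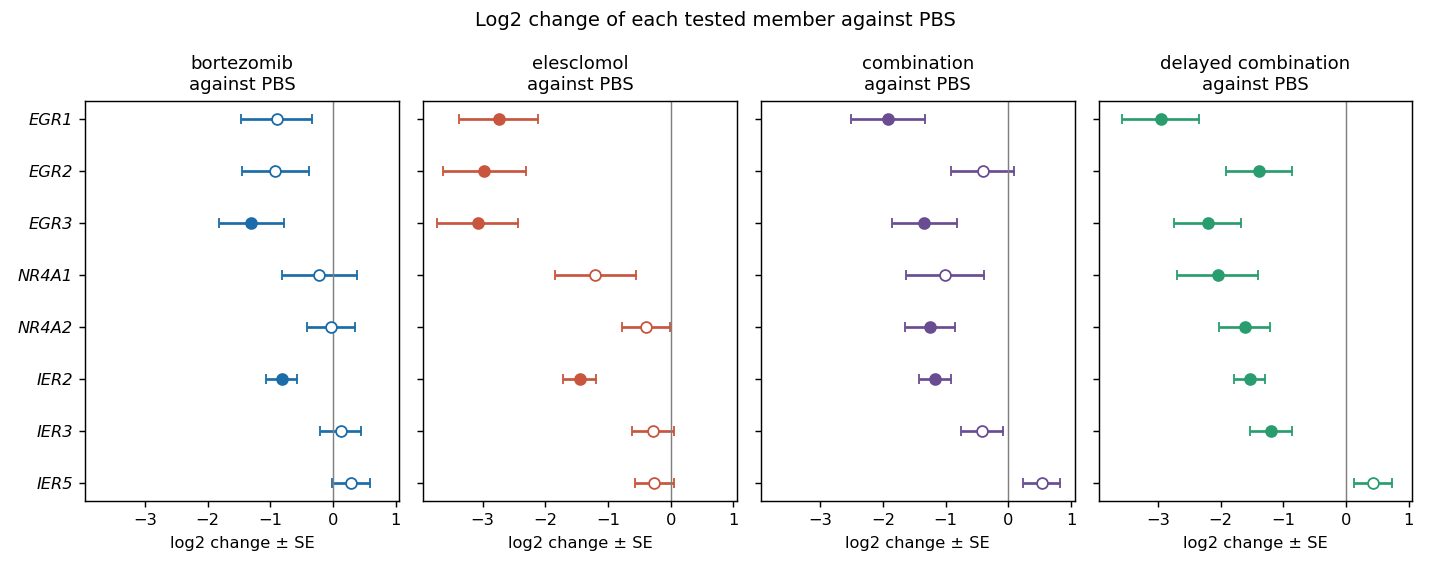
Log2 change (± SE, edgeR) of the 8 tested members in each treated group against PBS, with filled points at an unadjusted p under 0.05. EGR1 lies at -2.96 in the delayed combination and -2.74 with elesclomol, and IER5 is the only member above 0 in 3 of the 4 panels.

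By the test, 0 of 8 members passed in any of the 10 comparisons with edgeR. For elesclomol against PBS, 4 members (EGR1, EGR2, EGR3 and IER2) had an unadjusted p under 0.05, as did 8.07% of all genes. DESeq2 called these 4 lower, where it called 0.375% of all genes, and limma voom with quality weights called EGR1 and IER2 (0.39% of all genes). For the delayed combination, 7 members had an unadjusted p under 0.05, against 11.1% of all genes. Here DESeq2 and limma voom each called 3, EGR1, NR4A2 and IER2, where they called 0.352% and 1.2% of all genes. For the combination, 4 members had an unadjusted p under 0.05, against 13.6% of all genes, with 1 called by DESeq2 (IER2; 0.359% of all genes) and 3 by limma voom (EGR1, NR4A2 and IER2; 10.8% of all genes). For bortezomib the count was 2, EGR3 and IER2, against 10.6% of all genes, with 0 called by DESeq2 (0.0688% of all genes) and 2 by limma voom (EGR2 and IER2; 5.48% of all genes). The other tools called a member lower, never higher, in these 4 comparisons.

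The study's design also crosses the 2 drugs. Averaged over bortezomib absent and present, elesclomol gave a log2 change below 0 in all 8 tested members (median -0.95, all genes -0.002). It was -1.88 ± 0.43 for EGR1 (edgeR adjusted p = 0.513), -1.56 ± 0.44 for EGR3 (0.84), -0.90 ± 0.18 for IER2 (0.42) and -0.01 ± 0.21 for IER5 (1). An unadjusted p under 0.05 was reached by 6 members, against 3.69% of all genes, and 0% of all genes passed the adjusted threshold in edgeR. DESeq2 called 1 member lower (IER2), where it called 0.0688% of all genes, and limma voom 2 (EGR1 and IER2), where it called 0.245%.

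EGR2 and EGR3 had the highest values for the interaction of the 2 drugs. EGR2 stood at 2.42 ± 1.41 CPM in the combination and 1.64 ± 1.25 CPM with bortezomib, a log2 change of 0.51 ± 0.53 (edgeR adjusted p = 0.999), which was -0.07 ± 0.58 without combination 1 and 1.20 ± 0.61 without bortezomib 1. Without bortezomib it stood at 0.402 ± 0.0919 CPM with elesclomol and 3.29 ± 1.19 CPM in PBS (SD, n = 3 each). The interaction, which is the elesclomol change with bortezomib minus that without it, was 3.48 ± 0.85 on the log2 scale (edgeR adjusted p = 0.291). For EGR3 it was 3.04 ± 0.87 (0.37), for IER2 1.09 ± 0.37 (0.44) and for EGR1 1.72 ± 0.85 (0.612). Of the 8 members, 3 (EGR2, EGR3 and IER2) had an unadjusted p under 0.05, all above 0, against 8.79% of all genes. With edgeR 0 members passed, where 1 gene in all (0.00764%) did. DESeq2 called 0 members (0.245% of all genes), and limma voom called 1, EGR2 (2.19% of all genes). Combination 1 weighed on these values, and without it the interaction was 0.65 ± 0.74 for EGR1, 0.70 ± 0.33 for IER2, 2.43 ± 0.95 for EGR3 and 2.90 ± 0.86 for EGR2.

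**Figure D4:**
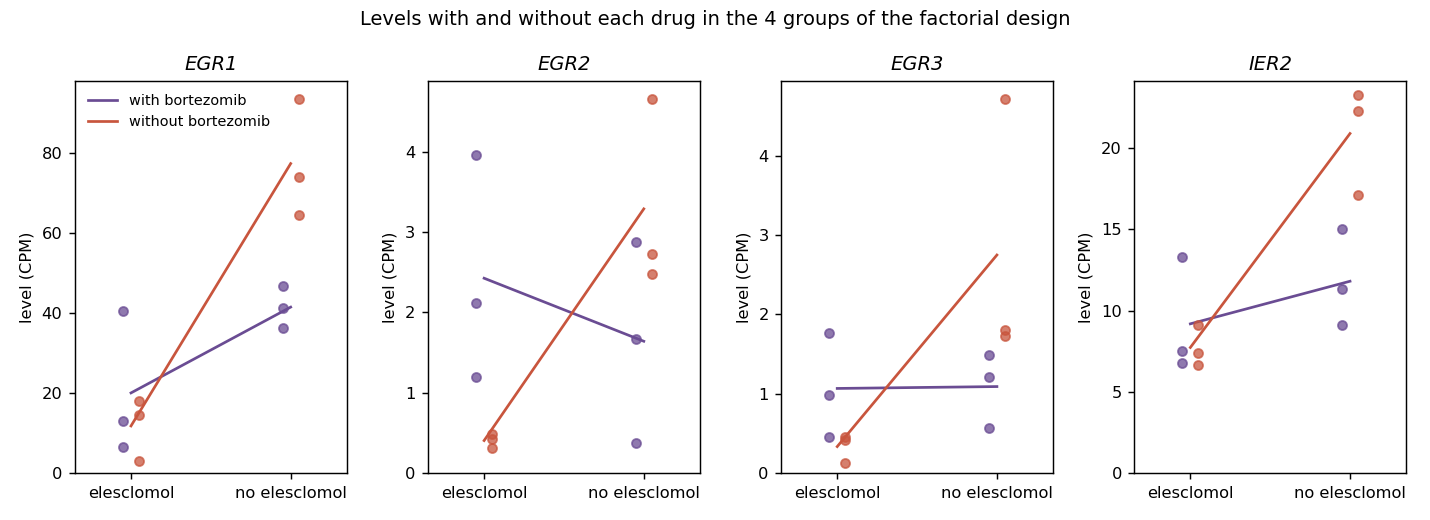
Levels (CPM) of EGR1, EGR2, EGR3 and IER2 in the 4 groups that cross the 2 drugs, 1 point per library, with lines joining group means and the groups with elesclomol on the left. The line without bortezomib is steep in all 4 panels, and the line with bortezomib is close to flat for EGR3 (1.07 CPM in the combination and 1.09 CPM with bortezomib).

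Treated groups were also set against each other. Against elesclomol alone, the combination was higher in EGR2 by 2.56 ± 0.66 (edgeR adjusted p = 0.205), in EGR3 by 1.74 ± 0.70 (0.34) and in IER5 by 0.78 ± 0.30 (0.331). EGR2 and IER5 lay above elesclomol without overlap, and EGR3 overlapped it by 1 library. NR4A2 lay below elesclomol without overlap, by -0.86 ± 0.40 (edgeR adjusted p = 0.41). The share of all genes without overlap was not counted for this comparison. EGR2, EGR3 and IER5 had an unadjusted p under 0.05, against 12.2% of all genes. Against bortezomib, the delayed combination had 5 members at an unadjusted p under 0.05, all lower (EGR1, NR4A1, NR4A2, IER2 and IER3), against 3.52% of all genes. IER3 was at 0.907 ± 0.179 CPM in the delayed combination and 2.31 ± 0.501 CPM with bortezomib, a log2 change of -1.33 ± 0.32 (edgeR adjusted p = 0.813). The combination against bortezomib had 1 such member, NR4A2 (4.23% of all genes), and the delayed combination against the combination had 1, IER3 (-0.78 ± 0.33, edgeR adjusted p = 1; 2.63% of all genes). In these 4 comparisons 0% of all genes passed the adjusted threshold in edgeR, and DESeq2 and limma voom called 0 members. Of all genes, DESeq2 called 0.405% and limma voom 1.37% for the combination against elesclomol, and 0.00765% and 0.298% for the combination against bortezomib. They called 0.0459% and 0.0306% for the delayed combination against bortezomib, and 0% each for the delayed combination against the combination.

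Variation within groups was compared between members. Deviations of log2 CPM from the group mean were correlated over the 15 libraries for the 28 pairs of tested members, with an exact two-sided permutation test within groups. The 28 values of Pearson's r ran from -0.424 to 0.788 with a median of 0.171, and 20 were above 0. The highest was that of EGR3 with NR4A1, at r = 0.788 (exact permutation p = 0.0152, adjusted over 28 pairs 0.396) and Spearman's rho = 0.668 (exact permutation p = 0.0417, adjusted 0.471). Leaving out the 2 libraries farthest from the median of EGR3 gave r = 0.678. EGR1 with NR4A1 followed at r = 0.713 (exact permutation p = 0.0559, adjusted 0.396), with rho = 0.779 (exact permutation p = 0.0109, adjusted 0.306), and at r = 0.484 without the 2 farthest libraries. In all, 1 pair had an unadjusted p under 0.05 for r and 0 an adjusted one. Combination 1 was the highest of its group for 7 of the 8 tested members, with a median deviation of 0.66 on the log2 scale, and it was GC-rich. Without the 3 GC-rich libraries, r of EGR3 with NR4A1 was 0.909 (exact permutation, adjusted p = 0.194).

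The genes whose pattern over the 15 libraries was most like the mean standardised profile of the 8 tested members were to a large part immediate early genes, with 5 of the 8 closest on the list of other immediate early genes. Pearson's r was 0.897 for JUN, 0.895 for PPP1R15A, 0.877 for FOS, 0.866 for JUND and 0.863 for FOSB, followed by HMGXB3 (0.854), TMEM107 (0.84) and OTUD1 (0.829). Symbols that are clone names, pseudogenes or antisense were left out of this ranking. Among the members themselves r ran from 0.187 for IER5 to 0.939 for EGR1, with NR4A2 at 0.569, IER3 at 0.594 and EGR2 at 0.654. These values are descriptions, since the libraries share groups and depth. The mean profile was built from the 8 members, so their r and those of the outside genes are not like for like. JUN, the AP-1 subunit, averaged 242 ± 9.61 CPM with bortezomib, 126 ± 54.6 CPM with elesclomol, 115 ± 74.6 CPM in the combination, 75.7 ± 19.4 CPM in the delayed combination and 476 ± 76.8 CPM in PBS. FOS, its partner, averaged 142 ± 29 CPM, 48 ± 35.2 CPM, 33.5 ± 31.9 CPM and 19 ± 10.5 CPM in the same 4 treated groups, against 212 ± 41.8 CPM in PBS. HMGXB3 spanned only 45.2 to 53.7 CPM over all groups.

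Other immediate early genes were counted from a list of 42, of which 38 were tested. With elesclomol, 26 were below PBS and 12 above (median -0.37), and 2 passed in edgeR, where 0.0688% of all genes did. These were DUSP2, lower by a log2 change of -1.97 ± 0.25, and PHLDA1, by -1.29 ± 0.17 (edgeR adjusted p = 0.00574 each). In the combination, the delayed combination and with bortezomib, 0 of 38 passed in edgeR against PBS, as did 0% of all genes. DESeq2 called 6 lower, 11 lower and 2 higher in the same order. An unadjusted p under 0.05 was reached by 15 lower and 4 higher, 18 lower and 5 higher, and 4 lower and 9 higher in the same order, and limma voom called 2 higher and 16 lower, 0 higher and 12 lower, and 6 higher and 4 lower. Over all genes limma voom called 10.8%, 1.2% and 5.48% in these comparisons, and DESeq2 0.359%, 0.352% and 0.0688%. An unadjusted p under 0.05 was reached by 13.6%, 11.1% and 10.6% of all genes in the same order. DUSP2, a nuclear phosphatase that inactivates ERK, averaged 5.58 ± 0.56 CPM with elesclomol and 21.9 ± 2.57 CPM in PBS. PHLDA1, a pleckstrin homology protein, averaged 39.6 ± 4.78 CPM with elesclomol and 96.5 ± 9.02 CPM in PBS. At an unadjusted p under 0.05, 14 of the 38 were lower with elesclomol and 6 higher, against 8.07% of all genes. For elesclomol DESeq2 called 5 lower and 1 higher (0.375% of all genes), and limma voom 6 lower and 0 higher (0.39%). For the elesclomol main effect 30 of 38 were below 0 and 18 had an unadjusted p under 0.05, all lower, with 0 passing in edgeR, 6 in DESeq2 and 9 in limma voom. Of all genes, 3.69% had such an unadjusted p, and the 3 tools called 0%, 0.0688% and 0.245%. The 6 with the smallest p there were DUSP2, PHLDA1, RHOB, JUN, KLF6 and DUSP1, at -0.92 ± 0.17, -0.58 ± 0.12, -0.97 ± 0.19, -1.50 ± 0.30, -1.19 ± 0.25 and -1.68 ± 0.37 (edgeR adjusted p 0.324 to 0.5).

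Regulators upstream lay on both sides of 0. Of 19 tested genes of the ERK, SRF and CREB routes, 9 were above 0 and 10 below for the elesclomol main effect, with a median of -0.02. In edgeR 0 passed and 0 had an unadjusted p under 0.05, against 0% and 3.69% of all genes. DESeq2 and limma voom called 0, against 0.0688% and 0.245% of all genes. For elesclomol against PBS, 2 higher and 1 lower had an unadjusted p under 0.05, against 8.07% of all genes, and these are named next. SRF, the factor that binds the CArG box, averaged 32.9 ± 2.58 CPM with elesclomol and 42 ± 2.41 CPM in PBS, a log2 change of -0.35 ± 0.15 (edgeR adjusted p = 0.589). CRTC3, a CREB coactivator, averaged 14.7 ± 1.56 CPM with elesclomol and 9 ± 2.13 CPM in PBS, a log2 change of 0.72 ± 0.23 (edgeR adjusted p = 0.445). MAPK3, which encodes ERK1, averaged 26.8 ± 2.42 CPM with elesclomol and 18.8 ± 0.879 CPM in PBS, a log2 change of 0.51 ± 0.14 (edgeR adjusted p = 0.338). In other comparisons limma voom called MAPK3 higher for bortezomib against PBS (5.48% of all genes). It called CRTC3 lower for the combination against elesclomol (1.37%), and both below 0 for the interaction (2.19%). In these 3 comparisons edgeR and DESeq2 called 0 of the 19. Transcript levels of a kinase do not measure its activity. Of the partners and corepressors, 8 of 9 were tested, 2 above 0 and 6 below for the elesclomol main effect (median -0.05), with 0 at an unadjusted p under 0.05 and 0 called by edgeR, DESeq2 or limma voom. NAB2, a corepressor bound by EGR proteins, was at -0.20 ± 0.31 and HSF1, the heat shock factor bound by IER5, at 0.13 ± 0.10. Against PBS, HSF1 stood at 0.49 ± 0.15 with bortezomib (edgeR adjusted p = 0.419), 0.37 ± 0.15 with elesclomol (0.556), 0.39 ± 0.15 in the combination (0.315) and 0.27 ± 0.14 in the delayed combination (0.473). Its levels were 85.6 ± 17.3, 78.8 ± 3.98, 80 ± 15.3 and 73.7 ± 1.96 CPM in the same order, against 61.1 ± 1.96 CPM in PBS (SD, n = 3 each). limma voom called it higher with bortezomib, where it called 5.48% of all genes, and in the combination, where it called 10.8%. DESeq2 called it in neither.

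Counting could be affected for 4 members by an antisense neighbour, since the strand setting of the counting is not given in the sources used here. In GENCODE 29 on GRCh38, 30.8% of the exonic bases of IER2 are shared with AC011446.2, 26.5% of IER3 with IER3-AS1, 10.3% of NR4A1 with AC025259.3 and 3.38% of EGR3 with AC055854.1. Over all 15 libraries these partners held 13, 36, 0 and 0 counts, against 1252 for IER2, 188 for IER3, 846 for NR4A1 and 127 for EGR3. These totals do not show how reads over the shared bases were assigned or whether they were dropped. The counting itself used GRCh37. EGR1, EGR2, NR4A2, NR4A3 and IER5 shared no exonic base with another gene.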

How the data were processed

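RNA was measured in 15 marrow libraries. Per the labels' protocols, RNA from frozen marrow pellets was extracted with Trizol and sequenced after ribosomal RNA depletion with a stranded total RNA kit. Alignment used STAR 2.5.4b on GRCh37 and counting used featureCounts 1.6.1, per the submitters' processing notes. What the authors deposited is a raw count for each of 57773 genes in every library. How mouse reads were handled is not given in the sources used here. Symbols and exon lengths came from GENCODE 29, which named 52338 genes.

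Samples were grouped by title. All 15 libraries entered a single edgeR 4.0.16 model under R 4.3.3, with TMM factors and the robust quasi-likelihood test. The filterByExpr filter (minimum count 10) kept 13085 genes, and adjusted p (Benjamini-Hochberg) under 0.05 passed. CPM use TMM-scaled totals. Alternatives used DESeq2 1.42.0 and limma 3.58.1. Exact two-sided permutations (7776 orders, smallest p 0.000129) used Python 3.11.15. The fits were tested on simulated data.

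The 9 members, the lists and tests and the rule for the genes named (all members, the 6 list genes with the smallest p for the elesclomol main effect, and the 8 genes most like the members' mean profile) were chosen with earlier results of these data known. Same-numbered bortezomib and combination libraries deviated together (correlations 0.655, 0.523 and 0.118), a pairing taken from the data with no source in the labels. After the GC and length correction these values were 0.519, 0.38 and 0.0986. Some libraries of different number also deviated together, as delayed combination 2 with combination 1 (0.473) and elesclomol 3 with bortezomib 1 (0.451) did. Others deviated apart, as combination 1 and bortezomib 2 did (-0.588).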

Additional observations from a re-analysis of the deposited data

Results flagged for a closer look

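EGR2 and EGR3 moved in opposite directions in the 2 settings where bortezomib was added. For EGR2, the mean log2 CPM of bortezomib minus PBS was -1.13, and that of the combination minus elesclomol was 1.90. For EGR3 the same values were -1.09 and 1.10. Every bortezomib library lay below the PBS mean, and every combination library lay above the elesclomol mean. The difference between the 2 settings was tested as the interaction, and it did not pass for EGR2 (edgeR adjusted p = 0.291) or EGR3 (edgeR adjusted p = 0.37). All libraries of elesclomol held 2 to 4 counts of EGR2 and 1 to 3 counts of EGR3.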

How the results depend on the processing

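The edgeR count of members passing was 0 of 8 in all 10 comparisons, and it depended on the test and the filter. The members called were lower throughout, except for the combination against elesclomol and the interaction, where they were higher. DESeq2 called 4 members for elesclomol against PBS, 1 for the combination, 3 for the delayed combination and 1 for the elesclomol main effect. limma voom called 2 for bortezomib, 2 for elesclomol, 3 for the combination, 3 for the delayed combination, 2 for the main effect and 1 for the interaction. With no filter on low counts edgeR called 1, 3, 2 and 3 for these 4 treatments against PBS, 1 for each combination against bortezomib, 1 for the combination against elesclomol, 2 for the main effect and 3 for the interaction. Over all 35074 genes it then called 76, 129, 211 and 193 against PBS, 14 (combination) and 25 (delayed combination) against bortezomib, 291 for the combination against elesclomol, 32 for the main effect and 127 for the interaction. A fit of only the groups compared called 3 for elesclomol (1.16% of all genes) and 3 for the delayed combination (0.149%). The correction for GC content and length called 1 for each of these, IER2 (0.0688% and 0.0229% of all genes). Without the 3 GC-rich libraries 3 were called for elesclomol and 1 for the combination, the delayed combination and the main effect, IER2 in each. Of all genes, 0.358%, 0.0685%, 0.0228% and 0.0685% were then called in the same order. The cause was not tested. Leaving out 1 library gave 0 to 1 for elesclomol (IER2, without bortezomib 1, bortezomib 2 or combination 1), for the delayed combination (IER2, without combination 1 or delayed combination 1), for the delayed combination against bortezomib (NR4A2, without bortezomib 1) and for the main effect (IER2, without combination 1). Of the 13363 to 13523 genes tested, these fits called 22, 12 and 17 for elesclomol and 6 and 44 for the delayed combination, in the order named. They called 4 for the delayed combination against bortezomib and 8 for the main effect. With the replicate block 0 members passed in every comparison, also when bortezomib and combination libraries were fitted by themselves, an alternative chosen after seeing the data, and it changed no call. Of 2032 changes of the 8 tested members over the 10 comparisons and all alternatives, 1982 kept their direction. Of the 50 that reversed, 8 were among 812 against PBS, all for bortezomib: NR4A2 (-0.03 as reported) at 0.01 with the host marker level as covariate and 0.38 without the GC-rich libraries, IER3 (0.12) at -0.04 with the GC correction, and, leaving out 1 library, NR4A1 (-0.22) at -0.59 to 0.52, NR4A2 at -0.58 to 0.38 and IER3 at -0.02 to 0.30. Between treated groups 30 of 814 reversed. Without the GC-rich libraries EGR1 was at -0.24, NR4A1 at -0.74 and IER2 at -0.11 for the combination against elesclomol (0.82, 0.19 and 0.28 as reported), EGR1 at 0.17 for the delayed combination against the combination (-1.04) and EGR2 at 0.11 for the delayed combination against bortezomib (-0.48). limma voom gave NR4A1 -0.08 and IER2 -0.06, EGR1 0.34 and IER2 0.05 (-0.36 as reported), and EGR2 0.50 in these 3 comparisons, and EGR3 0.29 for the combination against bortezomib (-0.04), where the replicate block gave 0.02. Leaving out 1 library gave ranges across 0: for the combination against elesclomol EGR1 -0.25 to 1.28, NR4A1 -0.74 to 0.62, IER2 -0.11 to 0.43 and IER3 -0.32 to 0.08; for the combination against bortezomib EGR2 -0.07 to 1.20, EGR3 -0.64 to 0.29 and IER5 -0.01 to 0.49; for the delayed combination against bortezomib EGR2 -0.88 to 0.22 and IER5 -0.15 to 0.41; and against the combination EGR1 -1.43 to 0.04, IER2 -0.53 to 0.03 and IER5 -0.39 to 0.18. In the 2 drug-crossing contrasts 12 of 406 reversed: the IER5 main effect (-0.01) at 0.06 in limma voom, 0.00 without the GC-rich libraries and -0.13 to 0.12 leaving out 1 library, and the NR4A1 interaction (0.41) at -0.04 in limma voom, -0.73 without the GC-rich libraries and -0.52 to 0.84. Leaving out combination 1 reversed EGR1, NR4A1 and IER2 against elesclomol, EGR2 and IER5 against bortezomib, the NR4A1 interaction, and EGR1, IER2 and IER5 for the delayed combination against the combination. The other settings, which were DESeq2 size factors, a minimum mean level, library sizes without abundant RNAs and the host covariate, called 0 members. Depth limits the members with few counts, which were NR4A3 (2 to 10 per library), EGR3 (1 to 31), EGR2 (2 to 36) and IER3 (7 to 20), and 3 libraries per group limit all.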
